A study of Saccharomyces cerevisiae with 9 samples.

Results

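The genes described here encode proteins of the mitochondrial ribosome of the budding yeast Saccharomyces cerevisiae. They were chosen by name from the sacCer3 annotation, as nuclear genes whose symbol starts with MRPL, MRPS, MRP or RSM followed by a number. The rule gave 67 genes of 6008 nuclear protein-coding genes, on 14 chromosomes. Of these, 38 encode proteins of the large subunit and 28 proteins of the small subunit, RSM22 among them, which the annotation calls a tRNA methyltransferase. MRP8 carries the name but is annotated only as Mrp8p, so it was placed in neither subunit. The rule uses names only and no value of the experiment, but it was set with earlier results of these data known.

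Nucleosomes were mapped by MNase-seq, in which micrococcal nuclease digests the DNA between nucleosomes and the protected fragments are sequenced from both ends. Strains in the BY4742 background were compared, with 3 samples each: WT (labelled WT ISW1a), ioc3Δ and ioc3ΔcHLB. Ioc3 is the accessory subunit that, together with the ATPase Isw1, forms the ISW1a remodeler. The ioc3Δ strain lacks the IOC3 gene, and ioc3ΔcHLB carries an internal truncation of the HLB domain of Ioc3. All cells were grown in YPD medium and fixed with formaldehyde. Every sample is labelled as carrying a FLAG tag, also those of ioc3Δ, whereas the methods describe the tag on IOC3 and on its truncated form.

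The mitochondrial ribosome translates the few messages of the mitochondrial genome, most of which encode membrane subunits of the respiratory chain and of the ATP synthase. Its RNAs come from mitochondrial DNA, but nearly all of its proteins are encoded in the nucleus, made in the cytosol and imported. In budding yeast these genes are scattered, are transcribed by RNA polymerase II and are regulated with growth and carbon source. ISW1a belongs to the ISWI remodelers, which slide nucleosomes and set their spacing. It is known for binding 2 neighbouring nucleosomes at once, at the start of genes, so the nucleosomes numbered from the start of a gene are where its loss is usually looked for.

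The deposited calls merge the samples of a strain. Each strain is therefore 1 sample here, no spread between cultures can be given, and no test across samples was possible. Positions are compared through the dyad, the centre of the nucleosome. A shift is the position of the ioc3Δ dyad minus that in WT, counted along the gene so that positive values lie downstream. Calls were taken from 60 bp upstream of the start codon to the stop codon. The 67 genes held 294 paired calls of 49752 in all genes, with 2 to 10 calls per gene and a median of 4. In WT a call of these genes rested on 98 to 15710 fragments (median 484) and in ioc3Δ on 34 to 17574 (median 285.5). Counting error was worked out for the mean of the dyads of a call, not for the called dyad from which a shift is taken. For the difference of these means between the strains it had a median of 1.53 bp and was at most 5.81 bp. IOC3 itself kept 0.574% of its WT occupancy in ioc3Δ, where the occupancy of a call is its number of dyads relative to the mean coverage of the genome. It kept only 0.680% in the table labelled ioc3ΔcHLB, in which most of the gene should be present.

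The table labelled ioc3ΔcHLB could not be treated as a separate strain. Of the 290 member calls it shares with ioc3Δ, 238 (82.1%) had occupancies within 1% of each other, against 4 (1.38%) between WT and ioc3Δ. Over all genes 61.1% of 48803 shared calls were within 1%. The occupancies therefore mostly differed by less than the sampling noise, and the table was counted with ioc3Δ as 1 sample. Its SDs were a median of 2.02 bp higher and its dyads were identical in 55 of the 290 calls and within 5 bp in 257. Some single shifts differed by more than the counting error of their mean dyads. A call of MRPL40 shifted by 28 bp in ioc3Δ (counting error 1.78 bp) and by 10 bp in the labelled table. The last call of MRPL35 shifted by -22 bp (counting error 1.67 bp) and by 2 bp. The counting error therefore does not cover the spread between these sets of calls. All comparisons below are ioc3Δ against WT, and values of the labelled table are given only beside them.

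The nucleosomes of mitochondrial ribosomal protein genes were numbered from the start codon, so the place where the numbering begins is set by rule. Each of the 67 genes had a +1 call, defined as the first WT dyad from 60 bp upstream to 120 bp downstream of the start codon. Each also had a +2 call, where every further number lies 110 to 230 bp from the one before. Of 5912 other genes, 5785 had a +1 call and 5396 a +2 call. A +3 call was present in 59 genes and a +4 call in 37, and 64 calls lay beyond the numbered positions or after a break in the numbering. The genes are short, with coding lengths of 213 to 1887 bp and a median of 699 bp, against 1215 bp for the other genes. As many as 28 are no longer than 560 bp, and in all but 2 of these +2 or +3 is already the last nucleosome. Genes of like length are therefore compared below.

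**Figure D1:**
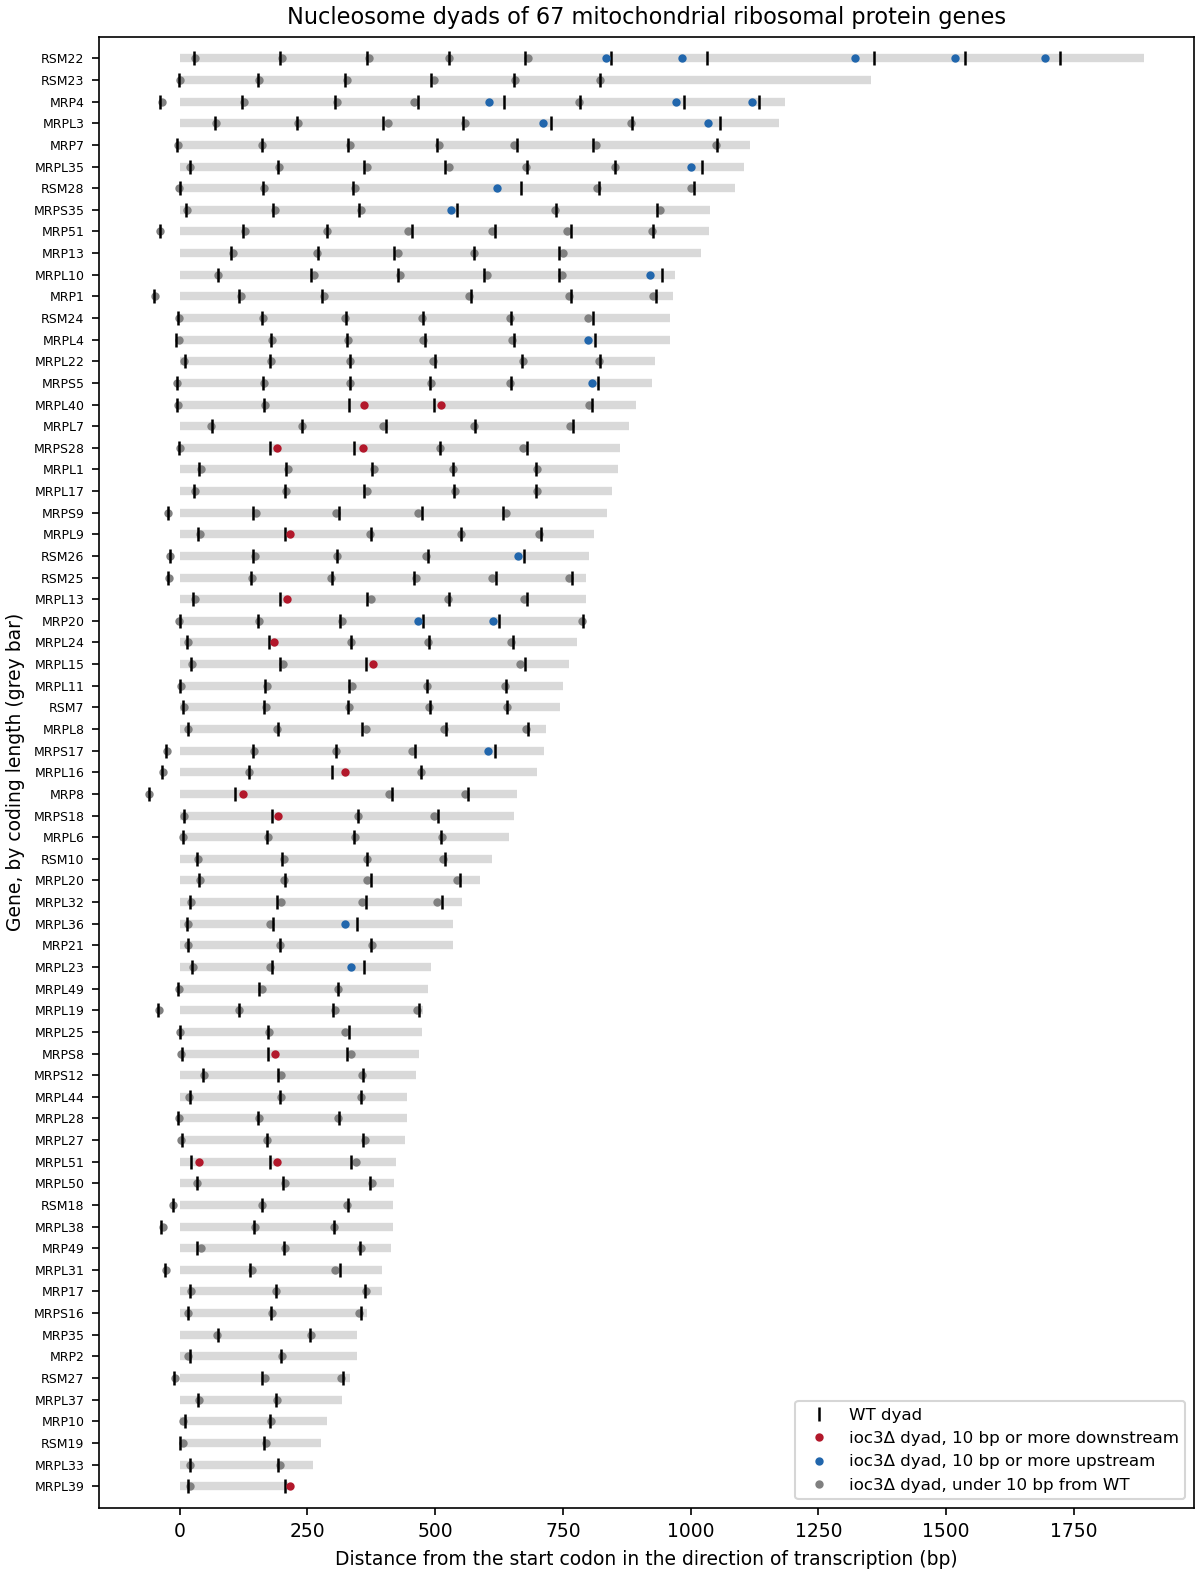
Dyads of the 67 genes, 1 row per gene, ordered by coding length (grey bar) and drawn against the distance from the start codon in bp. Black ticks are WT dyads and dots are the paired ioc3Δ dyads, red where they lie 10 bp or more downstream (15 calls), blue where they lie 10 bp or more upstream (22 calls) and grey otherwise. Red dots sit among the first nucleosomes and blue dots toward the end of the longer genes.

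Most nucleosomes of these genes kept their place in ioc3Δ. In 41 of the 67 genes (61.2%) every call lay less than 10 bp from its WT position, against 25.9% of other genes, which are longer and hold more calls. At like length the shares were 82.1% and 67.03% up to 560 bp, 46.7% and 47.1% at 561 to 800 bp, and 45.5% and 28.3% at 801 to 1200 bp, so they were nearly equal in the second class. A downstream shift of at least 10 bp was found in 15 of 294 calls (5.10%), where 15.5% of all calls in all genes were shifted as far. Upstream shifts of that size were found in 22 calls (7.48%), against 13.0% of all calls. The median shift per gene was 1 bp (interquartile range -0.75 to 2 bp), as in the other genes (1 bp, -1 to 3 bp).

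The share of large downstream shifts was lower than in other genes at each length. It was 5.06% against 10.3% in genes of up to 560 bp, 8.57% against 12% at 561 to 800 bp, and 3.88% against 13.2% at 801 to 1200 bp. Upstream shifts of that size made up 2.53% against 7.81%, 4.29% against 7.07%, and 9.30% against 10.02%, so the last of these classes was close to other genes. In the 2 members over 1200 bp, one of them RSM22, 31.2% of 16 calls lay upstream against 14.4%.

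The unequal-variance test that the methods describe was rebuilt from the shift, the SDs and the occupancy, at an unadjusted p under 0.01. It compares the merged libraries, not the strains. It called 22 member calls downstream (7.48%), beside 12.5% of all calls, and 18 upstream (6.12%), beside 9.06%. By length the downstream share was 5.06% against 8.30% in other genes up to 560 bp, 14.3% against 10.3% at 561 to 800 bp, and 6.20% against 12.4% at 801 to 1200 bp, so members were above other genes in the second class. When the number of observations was set to the 3 samples per strain, no call passed in either direction, in the members or in any of the 49697 calls tested. Paired dyads lay at most 72 bp apart, and the SD is a spread between fragments and not between samples. Shifts of this size can hardly pass with 3 observations, so the absence of calls says nothing about repeats.

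The small shifts that remained had a direction that changed along the gene. At +1 the median shift was 1 bp (0 to 2 bp), with the ioc3Δ dyad downstream in 44 of 67 genes. At +2 it was 3 bp (1 to 5 bp), downstream in 58 of 67 genes (86.6%) and upstream in 6. At +3 it was 2 bp (-1 to 4.5 bp), downstream in 35 of 59 genes. At +4 the sign turned, with a median of -2 bp (-5 to 1 bp), downstream in 12 of 37 genes and upstream in 20. The turn was weaker in the labelled table, with a +4 median of -1 bp, downstream in 15 of 38 genes and upstream in 20. As a mean the +4 shift was -1.57 bp in ioc3Δ and 0.08 bp in the labelled table.

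Pooled over all lengths, other genes did not turn at +4. Their medians were 2, 4, 4 and 3 bp from +1 to +4, and the share downstream was 65.1%, 75.4%, 71.8% and 64.0%. Other genes of 561 to 800 bp did turn: their +4 median was -1 bp, with 51.7% upstream, against -3 bp and 69.2% in members. At 801 to 1200 bp the +4 medians were 1 bp in other genes and 0 bp in members. Of the 37 member genes with a +4 call, 16 (43.2%) had a +2 dyad downstream and a +4 dyad upstream. Of 4040 other genes, which were not matched for length, 796 (19.7%) had both. Member calls past the numbered positions went further in the upstream direction: 52 of 64 lay upstream (81.2%), with a median of -6 bp. In other genes 53.6% of such calls lay upstream, with a median of -1 bp. In genes of 801 to 1200 bp the shares were 79.1% of 43 calls in members and 61.4% in other genes.

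**Figure D2:**
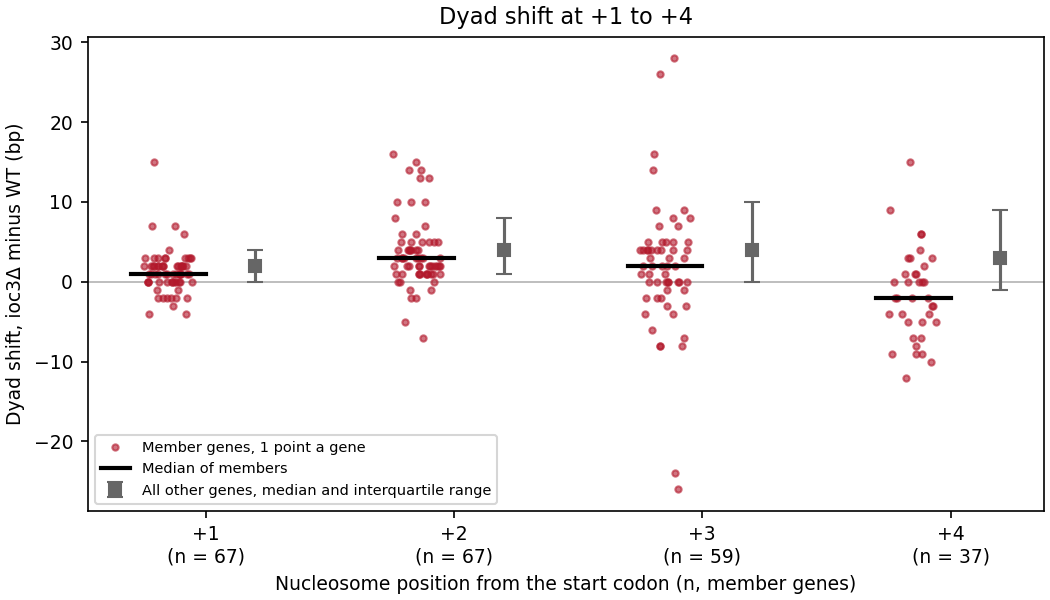
Dyad shift (ioc3Δ minus WT, bp, positive downstream) at nucleosomes +1 to +4. Each red point is 1 gene (67, 67, 59 and 37 genes), black bars are their medians (1, 3, 2 and -2 bp), and grey squares with bars give the median and interquartile range over all other genes (medians 2, 4, 4 and 3 bp).

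Large downstream shifts at the numbered positions were few. At +1 only MRPL51 was shifted by 10 bp or more, 1 of 67 genes (1.49%) beside 9.52% of all genes. At +2 there were 9 of 67 (13.4%) beside 17.8%, at +3 4 of 59 (6.78%) beside 25.1%, and at +4 1 of 37 (2.70%) beside 23.8%. These shares of all genes are not matched for length. At +2 they were 10.7% in members and in other genes up to 560 bp, and 26.7% against 15.1% at 561 to 800 bp. At 801 to 1200 bp they were 9.09% against 18.0%. At +3 the shares in the same order were 0% against 13.2%, 14.3% against 13.8%, and 9.09% against 20.9%. Members were thus not below other genes at 561 to 800 bp. Apart from MRPL51, no +1 dyad moved by more than 7 bp in either direction. No gene had its +1 to +4 dyads all 5 bp or more downstream.

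The turn from downstream to upstream was also present in other genes of like length, and was larger in the members. In genes of 561 to 1200 bp, calls up to 149 bp before the stop codon had a median shift of -6 bp in members (28 of 31 upstream, 90.3%) and of -2 bp in other genes (61.3% upstream). Calls 434 to 600 bp after the start codon had medians of -2 bp and 0 bp, and calls 601 to 800 bp after it -3 bp and -2 bp. Over the first 266 bp the medians of both sets were equal, at 1 bp before and 3 bp after base 100. The +4 medians were -3 bp against -1 bp at 561 to 800 bp, and 0 bp against 1 bp at 801 to 1200 bp.

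The last call of a gene showed the same order. Its median shift was -5 bp against -1 bp at 561 to 800 bp, and -6 bp against -2 bp at 801 to 1200 bp. In the shortest genes, of up to 560 bp, it was 1 bp against 0 bp, so the upstream tendency at the end was absent there. These are differences between medians of merged libraries, with no test.

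**Figure D3:**
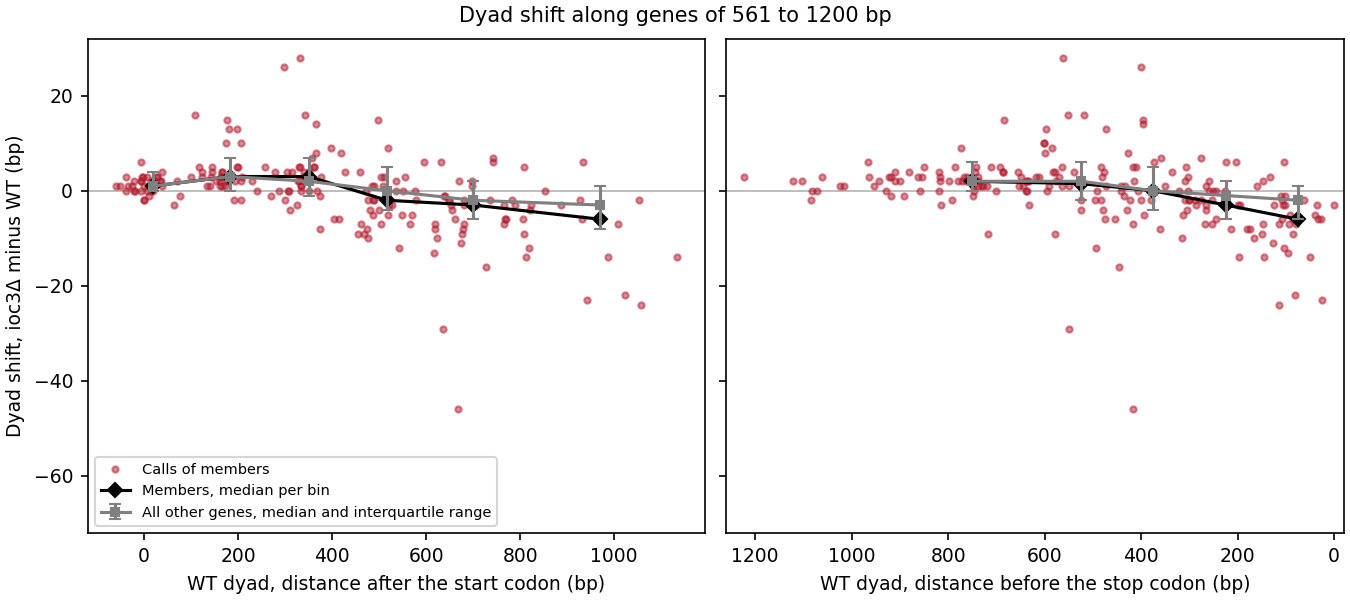
Dyad shift (bp) in genes of 561 to 1200 bp against the distance of the WT dyad after the start codon (left) and before the stop codon (right, axis reversed). Red points are member calls, black diamonds their medians per bin, and grey squares with bars the medians and interquartile ranges of other genes of that length. In the bin next to the stop codon the member median is -6 bp and that of other genes -2 bp.

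The distances between neighbouring dyads followed from these shifts. From +1 to +2 the median distance of the member genes was 168 bp in WT and 170 bp in ioc3Δ, longer in 42 of 67 genes and shorter in 19. From +2 to +3 it was 166 bp and 162 bp, shorter in 33 of 59 genes. From +3 to +4 it was 163 bp and 157 bp, shorter in 27 of 37 genes, with a median change of -4 bp (-8 to 0 bp).

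In other genes the distance from +1 to +2 also changed by a median of 2 bp, that from +2 to +3 by 0 bp and that from +3 to +4 by -1 bp. The shortening from +3 to +4 was -5 bp in members of 561 to 800 bp and -4 bp in those of 801 to 1200 bp, against -1 bp in other genes of either length. Both subunits gave it, with -3 bp in 21 large subunit genes and -5 bp in 16 small subunit genes.

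The sequences under the nucleosomes that moved farthest are printed for 8 genes, since they show how much DNA lies between the WT and the ioc3Δ centre. Each is the 147 bp around the WT dyad, within the coding region, from the R64 (sacCer3) reference of RefSeq and read 5′ to 3′ on the coding strand. Capitals run from the WT dyad to the ioc3Δ dyad, both included. The first 3 moved downstream, so the capitals follow the middle base.
MRPL40 (chrXVI:223402-223548, plus strand): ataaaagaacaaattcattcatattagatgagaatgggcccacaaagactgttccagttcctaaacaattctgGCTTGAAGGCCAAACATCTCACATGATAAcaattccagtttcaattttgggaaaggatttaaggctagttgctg
MRPL16 (chrII:146412-146558, plus strand): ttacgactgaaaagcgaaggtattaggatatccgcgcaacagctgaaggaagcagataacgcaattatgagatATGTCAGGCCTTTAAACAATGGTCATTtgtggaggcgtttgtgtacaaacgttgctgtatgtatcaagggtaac
MRP8 (chrXI:178550-178696, plus strand): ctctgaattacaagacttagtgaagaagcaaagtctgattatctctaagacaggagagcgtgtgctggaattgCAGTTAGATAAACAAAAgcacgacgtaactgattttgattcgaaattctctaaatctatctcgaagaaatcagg
The next 5 moved upstream, so the capitals end at the middle base.
RSM22 (chrXI:160238-160384, minus strand): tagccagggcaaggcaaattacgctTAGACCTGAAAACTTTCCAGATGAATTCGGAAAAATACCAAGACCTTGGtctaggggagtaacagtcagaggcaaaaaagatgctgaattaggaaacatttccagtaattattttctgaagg
RSM28 (chrIV:1437525-1437671, plus strand): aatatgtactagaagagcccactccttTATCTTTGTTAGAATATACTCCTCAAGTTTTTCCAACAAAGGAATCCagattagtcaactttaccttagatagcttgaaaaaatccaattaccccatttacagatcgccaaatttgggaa
MRP4 (chrVIII:99781-99927, plus strand): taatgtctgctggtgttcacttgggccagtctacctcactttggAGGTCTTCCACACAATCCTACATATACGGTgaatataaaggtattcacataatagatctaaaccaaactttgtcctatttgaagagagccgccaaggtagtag
MRPL23 (chrXV:612287-612433, plus strand): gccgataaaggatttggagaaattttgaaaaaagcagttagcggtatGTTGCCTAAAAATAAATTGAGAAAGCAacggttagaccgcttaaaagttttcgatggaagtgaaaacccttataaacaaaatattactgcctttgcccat
MRPL3 (chrXIII:322860-323006, plus strand): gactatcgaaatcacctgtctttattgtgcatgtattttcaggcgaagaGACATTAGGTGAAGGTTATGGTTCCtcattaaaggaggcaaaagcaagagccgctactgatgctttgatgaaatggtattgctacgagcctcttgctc
Their GC content lay between 34.7% in RSM28 and 42.9% in MRPL3, and the stretches in capitals were 17 to 49 bases long.

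Among large subunit genes the farthest downstream shift was that of MRPL40, which encodes uL24m, a protein near the exit of the nascent chain tunnel. Its +1 and +2 dyads shifted by 2 and 1 bp. The +3 dyad went from position 223475 to 223503, a shift of 28 bp, and the +4 dyad lay 15 bp downstream. The counting error of 1.78 bp at +3 applies to the mean of the dyads. The last call of the gene lay 6 bp upstream. From the deposited mean of the dyads the +3 shift was smaller, at 18 bp, and that of the last call larger, at -19 bp. In the labelled table the +3 shift was 10 bp.

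MRPL16, which encodes uL16m, moved in the same way at 1 nucleosome. Its shifts from +1 to +4 were 1, 1, 26 and 0 bp. The +3 call was broad in WT already, with an SD of 29.9 bp, and from the mean of the dyads its shift was 14 bp. The remaining large subunit genes named for a downstream shift were MRPL15 (14 bp at +3), MRPL13 (13 bp at +2) and MRPL24 (10 bp at +2). MRPL24 had a shift of only 2 bp from the mean of the dyads and did not pass the rebuilt test.

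MRPL51, for the large subunit protein mL43, was the exception at +1. Its dyads shifted by 15, 14 and 9 bp from +1 to +3, so the whole array of this gene of 423 bp lay downstream. Of these 3 calls only +1 passed the rebuilt test. The distance to the next call upstream grew from 286 to 304 bp. All 3 calls of MRPL51 also fall within the range of another annotated gene, as do the +1 calls of MRP4 and MRPL19, so they cannot be assigned to 1 gene.

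No small subunit gene had a downstream shift as large as those of MRPL40 and MRPL16. MRPS28, for uS15m, had shifts of 15 bp at +2 and 16 bp at +3, with 3 bp at +1 and 1 bp at +4. MRPS8, for uS8m, had 14 bp at +2, and MRPS18, for uS11m, 13 bp at +2. MRP8, in neither subunit, had 16 bp at +2, where the mean of the dyads gave 9 bp. In all 4 genes the +1 dyad stayed within 3 bp.

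The upstream shifts were longest in small subunit genes. RSM22, the longest member at 1887 bp, held 10 calls. The first 4 shifted by 2, 4, 4 and 0 bp and the fifth by 5 bp. The next 5 lay 10, 48, 38, 19 and 29 bp upstream, and the first of these did not pass the rebuilt test. From the mean of the dyads their shifts were -7, -37, -43, -20 and -28 bp. In the labelled table the shifts of -10, -38, -19 and -29 bp were -8, -34, -26 and -15 bp, and the call shifted by -48 bp was not shared. These 5 calls make up 5 of the 22 upstream shifts, and without RSM22 the share was 17 of 284 (5.99%). Their WT SDs were 27.0 to 36.2 bp, against 13.7 to 17.3 bp at +1 to +4.

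RSM28, for mS46, had 1 such call. The call that follows +3 lay 46 bp upstream (35 bp from the mean of the dyads, 27 bp in the labelled table), whereas the others were within 7 bp. MRP4, for uS2m, had shifts of 3, 3, 4 and -9 bp at +1 to +4 and then -29, -2, -14 and -14 bp. Its shift of -29 bp was -16 bp from the mean of the dyads. In both genes the first 3 dyads stayed within 4 bp of WT.

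Of the large subunit genes, MRPL23, for uL13m, had its last call 26 bp upstream (14 bp from the mean of the dyads). MRPL3, for mL44, a protein with a ribonuclease III fold, had 2 calls shifted by -16 and -24 bp among its last 3, and only the second passed the rebuilt test. From the mean of the dyads these shifts were 2 and -20 bp, so the first had no upstream shift by that measure. Its +1 to +4 dyads shifted by 2, 2, 9 and 3 bp. In MRPL23 and MRPL3 calls near the end of the gene thus lay closer to the start codon. MRPL23, at 492 bp, belongs to the shortest class, whose last calls had no upstream median. Of the 22 upstream shifts 13 lay within 200 bp of the stop codon, and of the 15 downstream shifts 1 did. The share of all calls within that distance was not computed. Within 149 bp of it lay 56 of all 294 member calls and 4868 of 49458 calls of other genes, which are longer.

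Upstream shifts came with broad calls. The median WT SD was 27.6 bp in the 22 calls shifted upstream, 19.2 bp in the 15 shifted downstream and 17.4 bp in the 257 others. The median number of WT fragments was 413.5 in the first, 386 in the second and 499 in the third. The counting error of the mean dyads was at most 3.58 bp in the 37 shifted calls. The part of the breadth of a call in its shift was not tested. Of the 15 downstream shifts 12 were also at least 10 bp in the labelled table, and of the 21 upstream shifts that it shares 16 were. Since that table was counted with ioc3Δ as 1 sample, this gives the spread between 2 sets of calls and not a repeat of the experiment. One call, the last of MRPL35, changed sign between the tables, from -22 to 2 bp.

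The nucleosomes of mitochondrial ribosomal protein genes were sharply placed in WT. The SD of the dyads of a call, in bp, is low where the fragments of a merged library agree in position. At +1 its median was 14.1 bp over the members and 18.3 bp over the other genes, and 59 of the 67 members lay below the latter. At +2 the medians were 16.6 and 19.4 bp (54 of 67 below), at +3 18.4 and 21.0 bp (37 of 59) and at +4 21.4 and 23.2 bp (24 of 37). The difference was thus widest at the start of the gene.

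It held in each length class at +1, with 14.7 bp against 20.6 bp up to 560 bp, 13.7 bp against 18.4 bp at 561 to 800 bp, and 13.1 bp against 18.4 bp at 801 to 1200 bp. The sharpest +1 calls belonged to MRP51, for bS1m, at 9.58 bp and RSM18, for bS18m, at 9.90 bp. The broadest belonged to RSM7, for uS7m, at 27.7 bp. In ioc3Δ the same calls had SDs of 10.2, 10.6 and 32.8 bp, so their order was kept.

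In ioc3Δ the calls were broader nearly throughout. The SD was higher in 270 of 294 member calls (91.8%), against 77.2% of the calls of other genes, and the median per gene was higher in all 67 members, against 90.8% of other genes. The size of the difference was much the same, with a median per gene of 2.77 bp (1.81 to 3.95 bp) in members and 2.60 bp in other genes. It grew along the array, from 1.91 bp at +1 to 2.57, 3.95 and 4.68 bp at +2 to +4, beside 1.90, 2.81, 3.80 and 3.95 bp in other genes. Over all calls of the genome the median SD was 26.0 bp in WT and 29.1 bp in ioc3Δ. The broader calls of the members cannot be told apart from this difference over the whole genome.

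**Figure D4:**
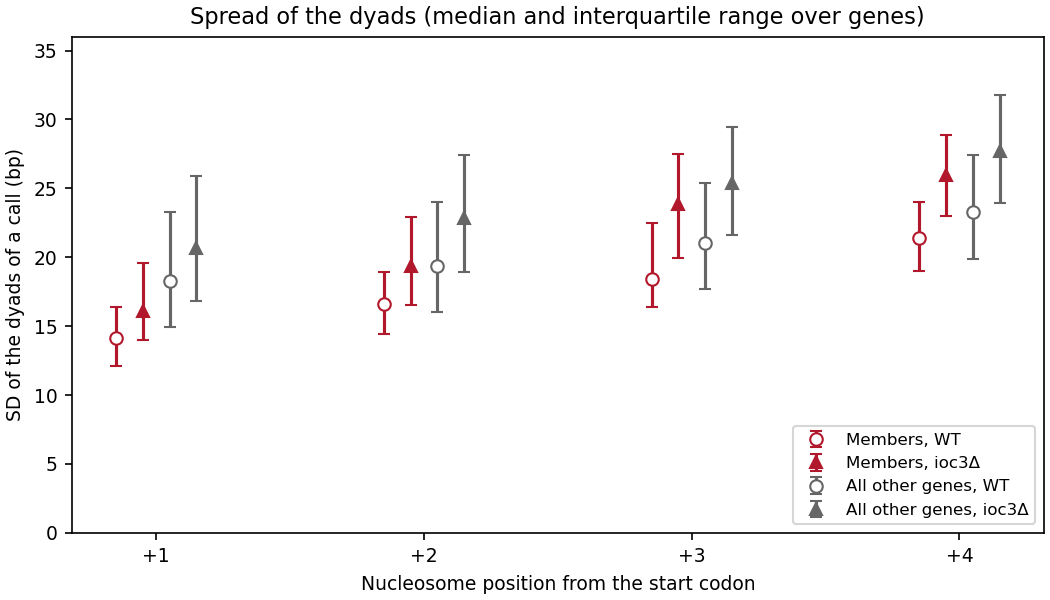
SD of the dyads of a call (bp) at +1 to +4, as the median (symbol) and interquartile range (bar) over genes. Open circles are WT and filled triangles ioc3Δ, red for the 67 members and grey for all other genes. Members start lower (14.1 against 18.3 bp at +1 in WT), and the ioc3Δ medians lie above WT at each position in both sets.

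The widest difference was that of MRPL1, for uL1m. Its SDs at +3, +4 and the fifth call were 18.4, 19.2 and 19.2 bp in WT and 27.4, 28.2 and 29.5 bp in ioc3Δ, while its dyads shifted by at most 4 bp. From the mean of the dyads the fifth call shifted by -14 bp and the others by at most 4 bp. MRPL24, for bL28m, had a median difference of 7.0 bp and MRPL32, for bL32m, of 6.26 bp. The smallest were those of MRPL33 (0.253 bp), MRPL37 (0.277 bp) and MRPL23 (0.353 bp), and no gene had a lower median in ioc3Δ.

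Upstream of the array, the promoter gap was narrow in the shortest of these genes. The distance from the +1 dyad to the next paired call upstream had a median of 302 bp (273.5 to 501 bp) in WT, against 451 bp in other genes, and 38 of 67 members (56.7%) lay under 350 bp, against 40.2% of other genes. By length the medians were 288.5 bp against 408 bp up to 560 bp, 504 bp against 401.5 bp at 561 to 800 bp, and 435.5 bp against 453 bp at 801 to 1200 bp, so the order turned in the second class. As only paired calls are in the tables, a long distance can also mean a call that was not paired. The distance was longest in RSM10 (1315 bp), MRPL10 (1206 bp) and RSM26 (931 bp) and shortest in MRP4 (160 bp), MRPL31 (233 bp) and MRPS12 (237 bp).

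In ioc3Δ the gap was wider by a median of 4 bp in members and in other genes alike, and wider in 50 of the 67 members. The upstream call lay further upstream in 49 members, with a median shift of -3 bp against -1 bp in other genes. Both sides of the gap thus lay slightly further apart, by amounts close to the counting error of a single call.

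The promoters were searched for sequence elements over the 250 bp before each start codon, on both strands. The hexamer AATTTT was present in 25 of 67 member promoters (37.3%) and in 48.6% of 6007 promoters. A run of 8 A, a tract that disfavours nucleosomes, was present in 12 member promoters (17.9%) and in 31.0% of all. Neither element was more common in these promoters than in others.

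Occupancy differed little in most members. The ratio of ioc3Δ to WT, divided by the median ratio of all paired calls (0.892), had a median over the 67 genes of 0.968 (0.900 to 1.16), against 1.02 in other genes. It was above 1 in 28 genes and below 1 in 39, and without the division by the genome median the median was 0.864. As a mean over the genes it was 1.07, on the other side of 1. Of the 294 calls, 37 (12.6%) had a ratio of at least 1.5, beside 11.8% of all calls. Only 15 (5.10%) had a ratio of at most 1/1.5, beside 8.96% of all calls.

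**Figure D5:**
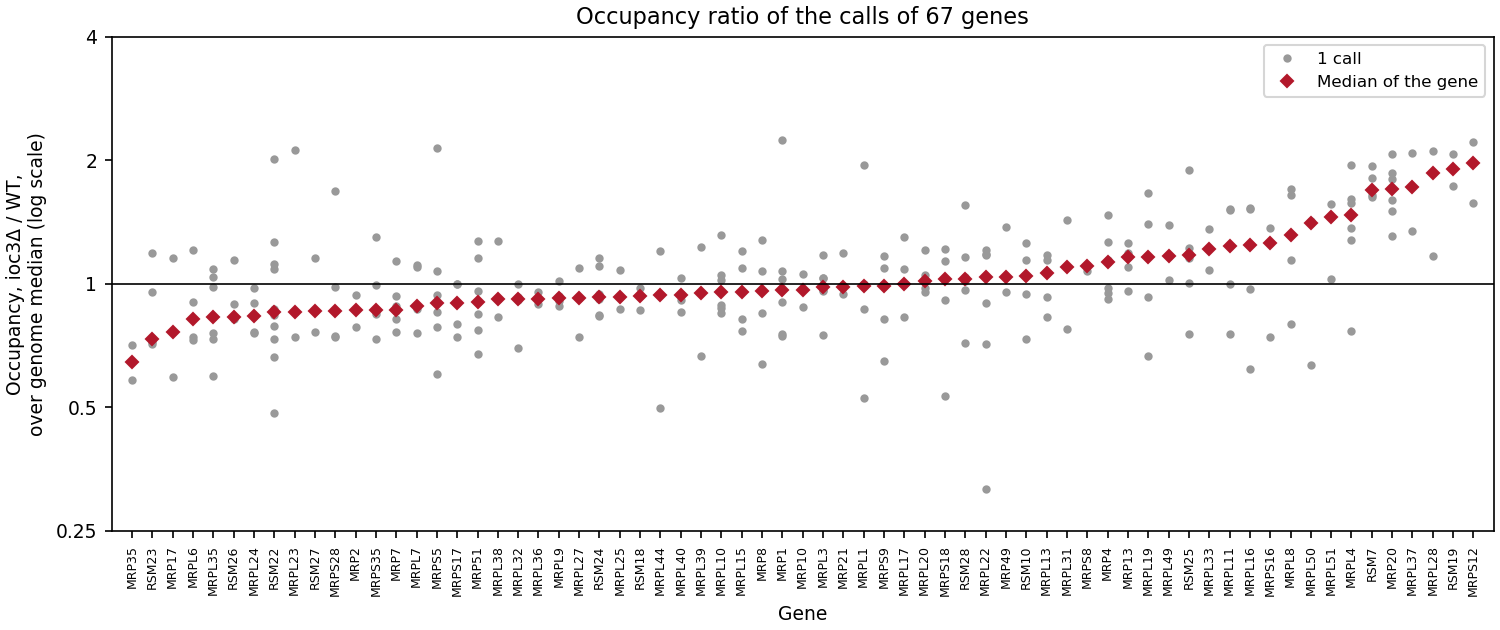
Ratio of ioc3Δ to WT occupancy over the genome median, on a log scale, for each call (grey) and as the median of each gene (red), with the 67 genes in order. Most medians lie close to 1, MRP35 is lowest at 0.647, and 6 genes from RSM7 to MRPS12 lie above 1.5.

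The highest ratios were found in 2 genes that lie next to each other on chromosome XIV. MRPS12, for uS12m, a protein of the decoding centre, had WT occupancies of 189, 462 and 149 at +1 to +3 and ioc3Δ occupancies of 265, 913 and 262, a median ratio of 1.97. RSM19, for uS19m, had 116 and 37.6 in WT and 215 and 58.0 in ioc3Δ, a median ratio of 1.90. Each call of both genes was higher in ioc3Δ. The median ratio of the calls within 5 kb was 1.18 around MRPS12 and 1.12 around RSM19, so the surroundings were higher to a smaller extent.

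MRPL28, for mL40, had a median ratio of 1.87, MRPL37, for mL54, of 1.72, and MRP20, for uL23m, which lies at the tunnel exit, of 1.70. The calls around these 3 genes had median ratios of 1.05, 1.10 and 0.946. RSM7 reached 1.69. In MRP20 the fifth call alone reached 1800 in WT and 3325 in ioc3Δ, whereas +1 had 22.8 and 26.5.

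Calls of very high occupancy were no more common in members than elsewhere. A WT occupancy of at least 500 was found in 11 member calls (3.74%) of 7 genes, against 3.76% of the calls of other genes, among them 4 of the 5 calls of RSM7 (2169 at +3), the +3 call of MRPL8 (2045) and the +2 call of MRPL4 (2015). The ratio was at least 1.5 in 10 of the 11, with a median of 1.81 (1.40 to 2.12). Among the 1858 calls of other genes past the same occupancy 71.3% had such a ratio, with a median of 1.71. High ratios thus came with high WT occupancy across the genome, and its part in the ratios of these genes was not tested. The limit of 500 was chosen after the values were seen.

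The lowest median ratios were those of MRP35 (0.647, bL35m), RSM23 (0.734, mS29), MRP17 (0.761, bS6m), MRPL6 (0.823, uL6m) and MRPL35 (0.828, mL38). In MRP35 both calls were lower, from 63.1 to 32.9 at +1 and from 80.1 to 50.6 at +2, which is also lower before any scaling. In RSM23 4 of the 6 calls lay between 0.715 and 0.739, and +1 and +2 were at 0.956 and 1.19. The calls within 5 kb of these 5 genes had medians of 1.12, 1.16, 0.988, 1.01 and 0.95.

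The 2 subunits were close at +1 and +2 and lay further apart at +3 and +4. Large subunit genes had median shifts of 1, 2, 3 and 0 bp from +1 to +4 and small subunit genes of 1, 3, 1 and -3.5 bp. At +4 the dyad lay upstream in 10 of 21 large subunit genes and downstream in 8. In small subunit genes it lay upstream in 10 of 16 and downstream in 4, so only these had an upstream median there. Downstream shifts of at least 10 bp made up 10 of 158 large subunit calls (6.33%) and 4 of 132 small subunit calls (3.03%), and upstream shifts 9 (5.70%) and 13 (9.85%), 5 of the latter in RSM22. The +1 SD in WT was 13.8 and 14.3 bp and the median occupancy ratio 0.984 and 0.966.

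Mitoribosomal proteins with other names gave a similar picture. The 13 genes such as RML2, IMG1, NAM9 and PET123 had 2 of 63 calls shifted 10 bp or more downstream (3.17%), a +1 SD of 13.6 bp in WT and median shifts of 0, 2, -1 and 2 bp. They did not have the upstream median at +4, which rests on 7 genes here. Genes of the mitochondrial translation factors, such as the elongation factors TUF1 and MEF1, had larger shares and shifts, with 13.2% of 121 calls downstream and medians of 3, 4.5, 3 and 5 bp over 14 genes. The 8 translational activators of single mitochondrial messages, such as PET309 and PET111, had 14.3% of 63 calls and medians of 2, 3, 6 and 1.5 bp.

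The 13 mitochondrial aminoacyl-tRNA synthetase genes had 17.6% of 131 calls downstream, 18.3% upstream and medians of 2, 7, 8 and 3.5 bp. These genes are longer than the ribosomal protein genes, with a median of 9 calls per gene against 4. The 137 cytosolic ribosomal protein genes were unlike the mitochondrial ones in WT already. Their median SD per gene was 29.3 bp against 18.4 bp, only 93 of them had a +2 call, and 9.35% of their 599 calls shifted 10 bp or more downstream and 16.0% upstream. Many cytosolic ribosomal protein genes have a near-identical copy, which makes the counts of their calls uncertain.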

How the data were processed

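MNase-seq of WT, ioc3Δ and ioc3ΔcHLB yeast (3 samples each) was analysed from the deposited tables. The authors aligned read pairs to sacCer3 with Bowtie 2.0 and used the midpoint of a pair as its dyad. Densities were scaled to the average coverage, nucleosomes were called after merging the samples of a strain, and WT and mutant calls overlapping by at least 73 bp were paired. The deposited values are positions, a score for the spread of the dyads (their SD, in bp) and an occupancy signal set relative to coverage. The columns of a table belong to a strain and not to a single sample.

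Of 53840 paired rows, 1911 repeats and 12 rRNA calls were dropped, which left 51917. Coding regions came from the R64 RefSeq annotation, which equals sacCer3, and transcription start sites were not used. Occupancies came in steps of 0.138 in WT and 0.199 in ioc3Δ (within 1% of a step), each taken as 1 fragment. Counting errors derive from it, apply to the difference of the mean dyads and cover counting only. In the unequal-variance test the occupancy stood for the number of observations, and both strains had to reach 2.

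The genes, lists and tests were chosen with earlier results of these data known. Named genes had an occupancy of at least 10 in both strains and were the 10 with the largest downstream and 5 with the largest upstream shift of a call, the 5 highest and 5 lowest median occupancy ratios, the 3 largest and 3 smallest differences in SD, the 3 longest and 3 shortest promoter gaps, and any gene with +1 to +4 all 5 bp or more downstream or with fewer than 2 calls. No gene met the last 2 conditions. MRP51, RSM18, RSM7, MRPL8 and MRPL4 were named after their values were seen. MRP35 was placed in the large subunit by its annotation. The calculation was tested on simulated data. Shifts from the deposited mean of the dyads were added after the data were seen. Other alternatives covered filters, length, overlap, thresholds, scaling, the number of observations and the table labelled ioc3ΔcHLB. The work was done in Python 3.11.15 with pandas 2.3.3, numpy 2.4.6, matplotlib 3.10.9 and scipy 1.17.1.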

Additional observations from a re-analysis of the deposited data

How the results depend on the processing

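Under the alternatives tried, 91 values stayed close to the reported ones and 15 moved. No shift or difference changed sign among these, but the mean +4 shift in the labelled table was 0.08 bp. In the labelled ioc3ΔcHLB table the SD difference was 4.81 bp and the +1 shift 0 as medians. Calls with a WT SD at or below the genome median had 2.76% shifted 10 bp or more upstream (6.002% in all genes). With a limit of 5 bp, 16.3% of the calls lay downstream and 18.4% upstream (28.8% and 22.8% in all genes), and with 20 bp 0.680% and 3.40% (7.29% and 6.62%). At an unadjusted p under 0.001 the rebuilt test called 4.42% downstream (9.12% in all genes). With 3 observations per strain it called 0 in either direction, in members and in all genes. The rebuilt test can hardly be passed at that setting by shifts of this size. With fragments as observations, chosen after the data were seen, it called 22.4% downstream and 16.0% upstream (27.8% and 20.1% in all genes). The median occupancy ratio stayed below 1 with no scaling (0.864) and when scaled by the summed occupancies (0.731), whereas the mean over genes was 1.07. No paired analysis was possible because each deposited table merges its samples, and leaving out single samples could not be done either. Merged calls give no error between cultures, and shifts of a few bp in single genes lie near the counting error.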
